A study of Mus musculus with 15 samples.

Results

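The enzymes described here place or remove chemical marks on chromatin, and their mRNA was followed in mouse adipocytes treated with forskolin or rosiglitazone. Members were chosen by name alone. They are every gene symbol that begins with Kdm, Hdac, Sirt or Kmt followed by a digit, together with Ehmt1, Ehmt2, Ezh1, Ezh2, Suv39h1, Suv39h2, Ep300, Crebbp, Kat2a, Kat2b, Dnmt1, Dnmt3a, Dnmt3b, Tet1, Tet2 and Tet3, with at least 100 reads over the 15 libraries. The rule gave 57 of 24421 genes. All 57 symbols that match by name reached the read minimum and passed the filter on low counts, which left 14421 genes for the tests. By role they are 18 histone demethylases, 11 zinc-dependent deacetylases, 7 sirtuins, 11 histone methyltransferases, 4 acetyltransferases and 6 enzymes of DNA methylation. Enzymes carried in the table under older symbols (Setd8, Suv420h1 and Suv420h2) are not members and were counted with related genes.

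The cells were MAP cells, a line of immortalized mouse adipocyte progenitors, and each of 5 groups had 3 RNA-seq libraries. All groups shared the same differentiation, with insulin, isobutylmethylxanthine (a phosphodiesterase inhibitor), dexamethasone and rosiglitazone, followed by insulin with rosiglitazone. The differentiated cells then received vehicle, rosiglitazone for 3 days (Rosi3D), or forskolin, which lasted 4 h in the group FSK4h, 1 day in FSK1D and 3 days in FSK3D. Forskolin activates adenylyl cyclase and so raises cAMP, and rosiglitazone activates the nuclear receptor PPARγ. Every vehicle cell had therefore also seen rosiglitazone earlier. The sources used here give neither the doses of the final treatments nor the time of the vehicle harvest. All libraries come from 1 cell line, and nothing in the labels says that those of a group came from separate cultures, so p-values reflect the spread among these libraries only, and that spread may be technical.

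Histone demethylases of the JmjC kind and the Tet proteins are dioxygenases that use iron, oxygen and 2-oxoglutarate to oxidize methyl groups on histones and on DNA. Zinc-dependent deacetylases and the NAD-dependent sirtuins remove acetyl and related acyl groups, which acetyltransferases such as Ep300 and Crebbp place at active enhancers and promoters. In fat cells several of these enzymes are known from work on adipogenesis and heat production. Kdm3a is a target of protein kinase A in brown fat, and class IIa deacetylases are held in the cytoplasm when salt-inducible kinases phosphorylate them.

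Library totals ran from 14056200 counts (FSK3D library S11) to 56282582 counts (Rosi3D library S13). Mature adipocyte markers were abundant in all libraries, with the 8 genes summing to 3444 to 3934 CPM, the usual count scaled to library size, in vehicle. The sums were 3657 to 4069 CPM at 4 h of forskolin, 2505 to 3060 at 1 day and 5131 to 5503 at 3 days, and 8131 to 8876 after rosiglitazone. The labels name the cell type as adipocyte progenitors, and progenitor markers summed to 719 to 764 CPM in vehicle and to 378 to 418 CPM in Rosi3D. Under forskolin the progenitor sums were 621.6 to 702.5 CPM at 4 h, 905 to 943 at 1 day and 712 to 780 at 3 days. Dividing-cell markers (10 genes) summed to 2094 to 2223 CPM in vehicle and, under forskolin, to 2562 to 2624 at 4 h, 2669 to 2750 at 1 day and 1244 to 1325 at 3 days, with 925 to 1064 after rosiglitazone. Smooth muscle and myofibroblast markers (5 genes) summed to 254 to 263 CPM in vehicle, 186.7 to 203.6 in FSK4h and 22.1 to 23.5 CPM in FSK1D. At 3 days these sums were 56.65 to 65.79 CPM in FSK3D and 53.1 to 53.57 in Rosi3D. Macrophage markers (6 genes) reached at most 11.5 CPM and endothelial markers (4 genes) at most 9.23 CPM in sum, with Adgre1 at 0 in 13 of the 15 libraries, Cdh5 at or below 0.109 CPM and Ptprc at or below 0.156 CPM. In such bulk RNA, fewer cells of a type and less RNA per cell cannot be told apart.

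Levels are CPM with library sizes adjusted by edgeR's TMM factors. Differences are log2 fold changes ± standard error (SE), and calls were made where edgeR's quasi-likelihood test gave an adjusted p under 0.05 (Benjamini-Hochberg, over all genes tested). At 4 h of forskolin 18 members were higher and 18 lower than in vehicle, where 28.4% of all genes were higher and 30.7% lower. At 1 day 11 were higher and 14 lower (19.5% and 20.7% of all genes), and at 3 days 19 were higher and 13 lower (25.9% and 27.0%). After rosiglitazone 18 were higher and 17 lower (28.6% and 32.0%). The members' shares lay near those of all genes, and so did their medians of -0.0057, -0.069, -0.024 and 0.022 in that order, against -0.035, -0.019, 0.0088 and -0.012 for all genes. A test for any difference among vehicle and the forskolin groups was passed by 51 of 57 members and by 81.5% of all genes. Members thus moved both ways. The split at 4 h rests on the scaling. Scaling by library size alone put the all-gene median at -0.228, and 10 members were then higher and 35 lower, so that 22.2% of the calls were rises where TMM gave 50%. Of all 14421 genes 2519 were then higher and 6708 lower, so that 27.3% of their calls were rises where TMM gave 48.1%. Later counts at 4 h with library size alone are to be read against these numbers. Fewer members moved by 1.5-fold or more. They numbered 7 higher and 7 lower at 4 h, 2 and 1 at 1 day, 5 and 5 at 3 days, and 4 and 7 after rosiglitazone. Among all 14421 genes 1554 were higher and 2008 lower by that much at 4 h, and 965 and 1054 at 1 day. At 3 days the all-gene numbers were 1408 and 1414, and after rosiglitazone 1959 and 2214. The calls of these members at 4 h and at 3 days of either agent held in each alternative fit in which the gene was tested. The 14 lower calls at 1 day were 6 without FSK1D library S8 and 9 without vehicle library S1.

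**Figure D1:**
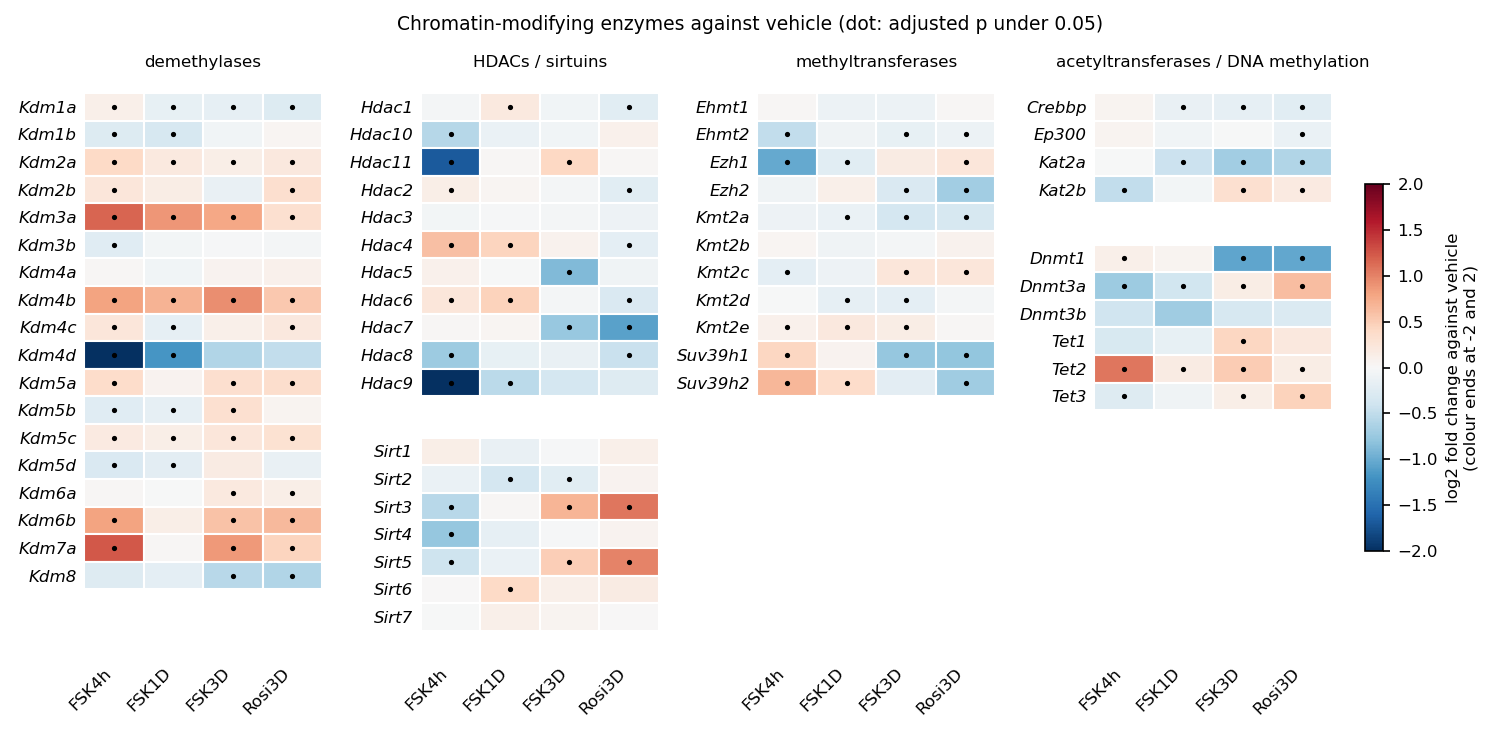
Log2 fold change against vehicle of the 57 members in FSK4h, FSK1D, FSK3D and Rosi3D, by role; blue is lower, red higher, and a dot marks an adjusted p under 0.05. Among demethylases 10 of 18 are called higher at 4 h, and Hdac9 (-2.23) and Hdac11 (-1.68) show a deep blue at 4 h that is gone or paler later.

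Vehicle cells differed widely in how much mRNA of each enzyme they held. Per kilobase of the deposited gene length, Hdac2 had the highest level with 78.4 ± 2.23 CPM per kb (SD, n = 3), followed by Ehmt2 with 57.5 ± 0.821 and Dnmt1 with 43.2 ± 2.33. The lowest were Tet1 with 0.288 ± 0.033, Kdm4d with 0.419 ± 0.149, Dnmt3b with 0.433 ± 0.064 and Hdac9 with 0.545 ± 0.0342 CPM per kb. Members that fell by 1.5-fold or more at 4 h had low vehicle levels, with a median of 3.16 CPM per kb, against 13 for those that rose that far and 13.7 for the other 43. This is a description of the 7 and 7 genes, since the vehicle level enters the fold change itself.

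Promoter sequence is shown for the members that moved 1.5-fold or more at 4 h and whose start region holds TGACG, the core of the element bound by the cAMP-responsive factor CREB. Windows of 250 bases before to 50 bases after each start site came from RefSeq on GRCm38.p6, and 47 of the 57 members have at least 1. The full palindromic element TGACGTCA was found in 588 of 32851 windows (1.79%) and, among members, in Suv39h2 alone. The core TGACG, searched on both strands and contained in the full element, was in 20.8% of all windows and in 18 of the 66 member windows. The PPAR element, a direct repeat of AGGTCA with 1 base between the copies, was in 0.0396% of all windows and in no member window. Restricted to the bases before the start site, the core was in 17.8% of all windows. Counted by gene and not by window, it was in 2 of the 5 risers with a window and in 3 of the 7 fallers. Kdm3a and Dnmt3a have 3 windows each and Hdac9 has 2, so these gene counts cannot be set against the share of windows. The stretches below run 5′ to 3′ on the gene's strand, end before the start site, leave out every annotated exon and carry the core or the full element in capitals. The sites of Hdac11 and Sirt4 lie within annotated exons and are not printed. The only window of Hdac4 lies inside the annotated gene, whose outer 5′ end is at 92195699. Its stretch thus precedes an inner start site, and the outer one was not searched.
Suv39h2, higher at 4 h, chr2:3475032-3475111, minus strand: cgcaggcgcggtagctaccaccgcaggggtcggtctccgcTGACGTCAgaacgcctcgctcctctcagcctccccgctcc
Hdac4, higher at 4 h, chr1:92180348-92180484, minus strand: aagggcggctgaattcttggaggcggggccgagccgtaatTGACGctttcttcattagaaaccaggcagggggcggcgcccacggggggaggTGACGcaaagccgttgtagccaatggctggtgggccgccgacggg
Kdm4d, lower at 4 h, chr9:14500483-14500545, minus strand: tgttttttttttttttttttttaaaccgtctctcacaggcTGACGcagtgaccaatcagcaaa
Kdm3a, Kdm7a and Tet2, the strongest risers at 4 h, have no such letters in the upstream part of their windows, and Kdm6b and Kdm4b have no window in the table. A match is a match of letters and shows no binding.

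Histone demethylases are 18 of the 57 members. They made up 10 of the 18 member rises at 4 h, 4 of 11 at 1 day, 9 of 19 at 3 days and 10 of 18 after rosiglitazone. At 4 h 10 of 18 demethylases were higher and 5 lower (median 0.14), at 1 day 4 and 6 (median -0.025), at 3 days 9 and 2 (median 0.14) and after rosiglitazone 10 and 2 (median 0.17). Counts by role are to be read against the shares of all genes, which were 28.4% higher and 30.7% lower at 4 h. These shares were 19.5% and 20.7% at 1 day, 25.9% and 27.0% at 3 days, and 28.6% and 32.0% after rosiglitazone. The split at 4 h turned to 6 higher and 8 lower with library size alone. The 6 lower calls at 1 day were 2 without FSK1D S8, 3 without FSK1D S7 and 3 without vehicle S1. Kdm7a (chromosome 6, 39136623 to 39206789, minus strand, GRCm38), which acts on H3K9 and H3K27, had the largest rise of any member. Its 3 vehicle libraries held 116, 132 and 128 CPM and its FSK4h libraries 268, 339 and 287, without overlap, a difference of 1.25 ± 0.075 (adjusted p = 4.48e-11). At 1 day it was back at 138, 118 and 128 CPM (0.030 ± 0.076, adjusted p = 0.793). At 3 days it was again above every vehicle library, with 236, 235 and 216 CPM (0.87 ± 0.076, adjusted p = 1.30e-08). Rosiglitazone gave 173, 166 and 176 CPM (0.45 ± 0.075). The rise, return and second rise were called as differences between times, by -1.22 ± 0.076 from 4 h to 1 day and by 0.84 ± 0.076 from 1 day to 3 days. In Kdm7a 2.85% of the exon bases also belong to 4930599N23Rik on the other strand, whose reads cannot be told apart where strand is not counted.

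Kdm3a (chromosome 6, 71588972 to 71632990, minus strand), an H3K9 demethylase that is also a known target of the hypoxia-inducible factors, rose early and stayed higher. Vehicle libraries held 92.3, 96.4 and 92.7 CPM. Under forskolin the values were 203, 217 and 207 CPM at 4 h, 174, 176 and 170 at 1 day and 150, 174 and 160 at 3 days, and under rosiglitazone 113, 115 and 123. Every treated library exceeded every vehicle library, and the differences were 1.16 ± 0.050 at 4 h (adjusted p = 5.05e-20), 0.89 ± 0.050 at 1 day, 0.78 ± 0.051 at 3 days and 0.32 ± 0.050 after rosiglitazone. Its paralog Kdm3b was lower at 4 h alone (-0.24 ± 0.059, adjusted p = 0.000884). Kdm4b (chromosome 17, 56326062 to 56402870, plus strand), which removes trimethylation of H3K9, was higher than in vehicle at every time. It stood at 72.8, 82.4 and 74.8 CPM in vehicle, and forskolin gave 129, 141 and 132 at 4 h, 117, 128 and 127 at 1 day and 138, 142 and 156 at 3 days. The differences were 0.80 ± 0.056, 0.69 ± 0.056 and 0.93 ± 0.056, with 0.54 ± 0.056 after rosiglitazone (adjusted p = 2.74e-10).

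Kdm6b, which demethylates H3K27, followed the course of Kdm7a. From 59.7, 61.5 and 58.1 CPM in vehicle it went to 107, 113 and 92.6 at 4 h, 63.6, 69.4 and 63.5 at 1 day and 88.9, 84.4 and 95.7 at 3 days, while rosiglitazone gave 94.1, 94.1 and 91.8. The differences were 0.80 ± 0.060 at 4 h, 0.59 ± 0.061 at 3 days and 0.64 ± 0.060 after rosiglitazone (adjusted p = 3.31e-11), while 0.13 ± 0.061 at 1 day was not called (adjusted p = 0.0861). At 1 day Kdm6b was called with 3 other settings, among them size factors of the DESeq2 method (0.15, adjusted p = 0.0444). Kdm2a, a demethylase of H3K36, was higher at all 3 times by 0.40, 0.20 and 0.13, and without vehicle library S3 the call at 3 days was lost (0.11, adjusted p = 0.0508). Kdm5a, which acts on H3K4, was higher by 0.36 at 4 h, 0.33 at 3 days and 0.35 after rosiglitazone.

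Among the demethylases that fell, Kdm4d dropped at 4 h by 2.03 ± 0.43 on the log2 scale (adjusted p = 0.000135), from 1.05, 0.755 and 1.54 CPM to 0.330, 0.162 and 0.288. These are 99 reads over the vehicle libraries and 24 over FSK4h, so the size of the fall is poorly known. Its difference of -1.18 ± 0.40 at 1 day was lost without vehicle library S3 (-0.87, adjusted p = 0.136) or without any of the FSK1D libraries S7, S8 and S9 (-1.20, -1.12 and -1.18, adjusted p = 0.0503, 0.0636 and 0.0523). Kdm8, a JmjC hydroxylase, fell late, by 0.56 ± 0.16 at 3 days (adjusted p = 0.00400) and by 0.60 ± 0.16 after rosiglitazone (adjusted p = 0.00109). Kdm1a, the flavin-dependent H3K4 demethylase LSD1, stood at 86.9, 82.4 and 83.7 CPM in vehicle and at 69.0, 69.7 and 70.2 after rosiglitazone (-0.28 ± 0.049, adjusted p = 8.77e-06).

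The zinc-dependent deacetylases moved as separate genes, 3 higher and 4 lower of 11 at 4 h, 3 and 1 at 1 day, 1 and 2 at 3 days, and 0 and 6 after rosiglitazone, with medians of -0.041, 0.017, -0.063 and -0.23. With library size alone 1 was higher and 7 lower at 4 h. Of all genes 28.6% were higher and 32.0% lower after rosiglitazone. Hdac9 (chromosome 12, 34047580 to 34917095, minus strand), a class IIa member known to restrain adipogenic differentiation, had the largest fall of any member. Its libraries held 5.65, 5.78 and 6.35 CPM in vehicle and 1.07, 1.42 and 1.33 in FSK4h (-2.23 ± 0.19, adjusted p = 3.33e-12). All FSK4h libraries lay below all others of the series. By 1 day it had returned to 4.48, 3.41 and 4.29 CPM (-0.54 ± 0.16, adjusted p = 0.00772), a call that was lost without FSK1D library S8 (-0.42, adjusted p = 0.0715).

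Hdac11 (chromosome 6, 91156665 to 91174692, plus strand), the class IV enzyme that removes long-chain fatty acyl groups and whose loss raises heat production in mice, fell just as early. Vehicle libraries held 5.28, 5.15 and 6.02 CPM and FSK4h libraries 1.76, 1.58 and 1.77 (-1.68 ± 0.17, adjusted p = 3.68e-10). At 1 day the values of 5.39, 5.23 and 6.01 CPM lay within the vehicle range, and at 3 days 6.57, 6.58 and 8.49 CPM lay above it (0.41 ± 0.15, adjusted p = 0.0217). The late call rests on few reads and was lost without FSK3D library S12 (0.27, adjusted p = 0.201), vehicle S1 (0.40, adjusted p = 0.0579) or vehicle S2 (0.38, adjusted p = 0.0666). Hdac8, a class I enzyme that acts on cohesin, went from 12.4, 13.2 and 12.3 CPM to 7.18, 8.33 and 7.39 at 4 h (-0.73 ± 0.11, adjusted p = 1.30e-06) and was lower again after rosiglitazone (-0.45 ± 0.11, adjusted p = 0.000750). Hdac10, a polyamine deacetylase, was lower at 4 h alone (-0.58 ± 0.11, adjusted p = 5.29e-05).

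**Figure D2:**
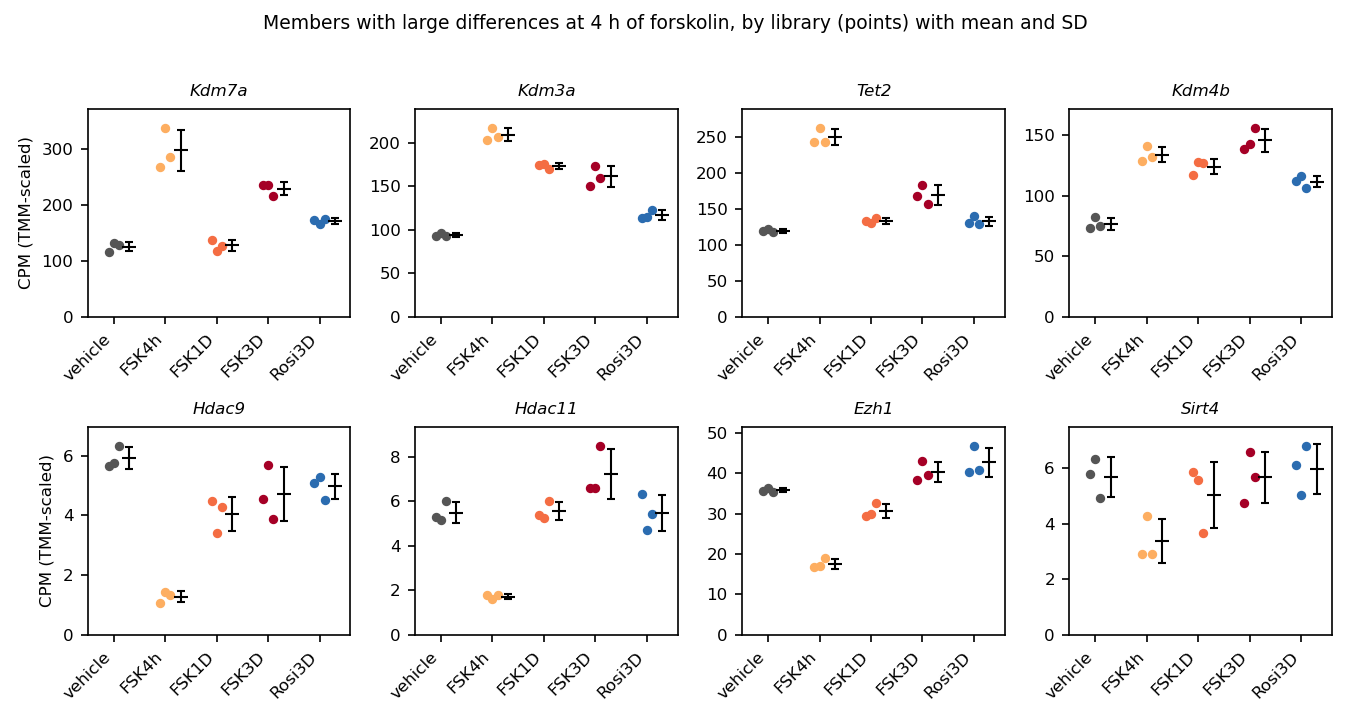
TMM-scaled CPM of 8 members in each library (points, linear axis from 0) with mean and SD beside them, in vehicle, FSK4h, FSK1D, FSK3D and Rosi3D. Kdm7a, Kdm3a, Tet2 and Kdm4b lie above vehicle in every FSK4h library, Hdac9, Hdac11, Ezh1 and Sirt4 below it, and the 4 fallers are back near vehicle at 1 day or later.

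Class IIa deacetylases, which bind MEF2 factors, each took a different course. Hdac4 rose from 40.5, 36.4 and 38.3 CPM to 60.3, 55.0 and 59.8 at 4 h (0.60 ± 0.065, adjusted p = 7.85e-10) and stood at 49.9, 52.9 and 54.9 at 1 day (0.45 ± 0.065). Its stretch with 2 TGACG cores, printed above, precedes an inner start site. Hdac5 (chromosome 11, 102194432 to 102230166, minus strand) was at 78.8, 80.3 and 74.4 CPM in vehicle, 84.3, 81.9 and 83.7 at 4 h and 70.9, 77.5 and 85.1 at 1 day. It fell at 3 days of forskolin alone, to 40.7, 42.9 and 43.5 CPM (-0.88 ± 0.059, adjusted p = 1.81e-14), while the Rosi3D libraries held 73.4, 73.0 and 74.3. The direct difference between FSK3D and Rosi3D was -0.80 ± 0.059 (adjusted p = 2.55e-13), the largest of any member. Hdac7 (chromosome 15, 97792664 to 97844502, minus strand) fell under both agents, from 72.1, 69.8 and 70.6 CPM to 43.6, 37.8 and 44.0 in FSK3D (-0.75 ± 0.062) and to 32.8, 34.9 and 32.6 in Rosi3D (-1.09 ± 0.062, adjusted p = 8.32e-17). Hdac6, a deacetylase of tubulin in class IIb, was higher at 1 day (0.46 ± 0.054), higher at 4 h (0.24 ± 0.054, but 0.051 and not called with library size alone) and lower after rosiglitazone (-0.31 ± 0.055).

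Of the class I enzymes Hdac1, Hdac2 and Hdac3, each differed from vehicle by 0.23 at most on the log2 scale. Hdac2 (-0.23 ± 0.044) and Hdac1 (-0.23 ± 0.063) were lower after rosiglitazone, and Hdac1 was higher at 1 day (0.20 ± 0.062, adjusted p = 0.0109). Hdac2 was higher at 4 h by 0.13 ± 0.044 (adjusted p = 0.0131), and with library size alone it had the opposite sign (-0.065, adjusted p = 0.218). Hdac3, the enzyme of the NCoR complexes, was called in no comparison with TMM, and with library size alone it was lower at 4 h (-0.24, adjusted p = 0.000315).

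Among sirtuins, the mitochondrial members Sirt3, Sirt4 and Sirt5 were all lower at 4 h, and no other sirtuin was called then with TMM. With library size alone 5 of the 7 were lower. Sirt3 (chromosome 7, 140863666 to 140882309, minus strand), the main deacetylase of the mitochondrial matrix, was at 6.33, 6.40 and 6.20 CPM in vehicle and at 4.78, 4.17 and 3.89 in FSK4h (-0.55 ± 0.14, adjusted p = 0.000971). It rose to 10.8, 8.91 and 10.3 CPM in FSK3D (0.68 ± 0.13, adjusted p = 5.00e-05) and to 14.1, 10.9 and 14.4 in Rosi3D (1.07 ± 0.13, adjusted p = 5.62e-09), with no overlap with vehicle. Of its exon bases 5.73% are shared with Psmd13 on the other strand. Sirt5, which removes succinyl and malonyl groups, was at 3.27, 3.81 and 2.75 CPM in vehicle, 4.61, 3.70 and 5.34 in FSK3D (0.50 ± 0.17, adjusted p = 0.0135) and 6.60, 6.51 and 6.54 in Rosi3D (0.99 ± 0.16, adjusted p = 2.11e-06). The FSK3D range overlaps that of vehicle, and the call was lost without vehicle library S3 (0.40, adjusted p = 0.0745) or FSK3D library S12 (0.36, adjusted p = 0.128). Its fall at 4 h (-0.42 ± 0.18, adjusted p = 0.0427) was lost with 4 other settings, among them size factors of the DESeq2 method (-0.39, adjusted p = 0.0561), and without any of vehicle S1 and S2 and FSK4h S4, S5 and S6 (-0.28 to -0.42, adjusted p = 0.0730 to 0.237). Sirt4, a mitochondrial lipoamidase, went from 5.80, 6.34 and 4.92 CPM to 2.91, 4.29 and 2.92 at 4 h (-0.77 ± 0.19, adjusted p = 0.000590) and was not called later.

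The rises of Sirt3 and Sirt5 moved with mature adipocyte markers, of which 7 of 8 were higher and 1 lower at 3 days of forskolin and 6 of 8 higher and 1 lower after rosiglitazone, and their part in these rises was not tested. The sirtuins outside mitochondria changed little. Sirt6 was higher at 1 day (0.40 ± 0.11, adjusted p = 0.00255), and Sirt2 was lower at 1 day (-0.36 ± 0.078) and at 3 days (-0.23 ± 0.078, adjusted p = 0.0140), the latter lost without vehicle library S2 (-0.18, adjusted p = 0.0887) or FSK3D library S11 (-0.19, adjusted p = 0.0657). With TMM, Sirt1 and Sirt7 were not called against vehicle at any time or after rosiglitazone. With library size alone Sirt7 was lower at 4 h (-0.20, adjusted p = 0.0477) and Sirt1 lower at 1 day (-0.18, adjusted p = 0.0306). Sirt1 at 4 h (0.14 ± 0.066, adjusted p = 0.0661) was called with 4 other settings, with adjusted p = 0.0314 to 0.0451, and without FSK4h library S4 (0.19, adjusted p = 0.0233).

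Histone methyltransferases were 3 higher and 3 lower of 11 at 4 h (median -0.0074), 2 and 3 at 1 day (median -0.086), 2 and 5 at 3 days (median -0.16) and 2 and 5 after rosiglitazone (median -0.037). With library size alone 2 were higher and 8 lower at 4 h, and 6 rather than 3 were lower at 1 day. Of all genes 25.9% were higher and 27.0% lower at 3 days of forskolin, and 28.6% and 32.0% after rosiglitazone. Ezh1 and Ezh2 are the alternative catalytic subunits of Polycomb repressive complex 2, which methylates H3K27. Ezh1 (chromosome 11, 101191115 to 101226463, minus strand) dropped from 35.7, 36.4 and 35.5 CPM to 16.9, 16.9 and 19.0 at 4 h (-1.03 ± 0.076, adjusted p = 8.30e-14). It was at 29.6, 29.9 and 32.6 CPM at 1 day (-0.22 ± 0.073, adjusted p = 0.0129), a call lost without vehicle S2 (-0.20, adjusted p = 0.0633), FSK1D S7 (-0.18, adjusted p = 0.0918) or FSK1D S8 (-0.19, adjusted p = 0.0663). At 3 days of forskolin Ezh1 was at 38.4, 43.2 and 39.5 CPM, above every vehicle library but not called. It was called there with size factors of the DESeq2 method, a filter of 1 CPM, counts divided by 2 and fits on the compared groups alone. These gave 0.17 to 0.18 (adjusted p = 0.0317 to 0.0476), and leaving out FSK3D S10 gave 0.21 (adjusted p = 0.0329). After rosiglitazone Ezh1 was at 40.4, 46.9 and 40.9 CPM (0.25 ± 0.071, adjusted p = 0.00277). Ezh2 did not pass at 4 h (-0.092 ± 0.063, adjusted p = 0.212), but with library size alone it was called lower (-0.28, adjusted p = 0.000317). It was lower at 3 days under both agents, from 57.6, 52.9 and 53.3 CPM in vehicle to 45.4, 46.8 and 40.6 in FSK3D (-0.31 ± 0.065) and 31.5, 34.4 and 35.1 in Rosi3D (-0.70 ± 0.064, adjusted p = 1.59e-11).

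Suv39h1 and Suv39h2 place the H3K9 trimethylation of heterochromatin. Suv39h1 (chromosome X, 8061171 to 8074760, minus strand) was higher at 4 h, with 73.6, 64.4 and 72.2 CPM against 54.0, 51.3 and 51.1 in vehicle (0.43 ± 0.065, adjusted p = 9.12e-07). At 3 days it was lower in every library, with 30.3, 30.2 and 31.4 CPM in FSK3D (-0.77 ± 0.070) and 29.5, 34.4 and 27.3 in Rosi3D (-0.78 ± 0.068, adjusted p = 4.68e-12). Suv39h2, the member with the full cAMP response element printed above, went from 9.35, 10.1 and 11.96 CPM to 15.1, 17.5 and 17.2 at 4 h (0.66 ± 0.13, adjusted p = 5.07e-05). After rosiglitazone it was at 7.16, 5.44 and 6.31 CPM (-0.70 ± 0.14, adjusted p = 4.96e-05). Of its exon bases 8.10% are shared with Dclre1c on the other strand.

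The other methyltransferases moved less. Ehmt2, an H3K9 dimethyltransferase and the second most abundant member per length, was at 168, 161 and 172 CPM in FSK4h against 235, 231 and 237 in vehicle (-0.49 ± 0.045, adjusted p = 2.68e-11), and its difference after rosiglitazone (-0.11 ± 0.045, adjusted p = 0.0299) was lost with 5 other settings (-0.091 to -0.099, adjusted p = 0.0528 to 0.111) and without any 1 of the 6 libraries (-0.087 to -0.11, adjusted p = 0.0632 to 0.155). Its partner Ehmt1, known for its work with Prdm16 in brown fat, did not pass against vehicle in any group (adjusted p = 0.0653 to 0.806), though it was lower at all 3 forskolin times with library size alone (-0.17, -0.15 and -0.13) and at 3 days without FSK3D S12 (-0.14, adjusted p = 0.0380). The large H3K4 methyltransferases differed from vehicle by at most 0.35 on the log2 scale, and Kmt2a was lower at 3 days of forskolin (-0.35 ± 0.048) and of rosiglitazone (-0.33 ± 0.047), while Kmt2c was higher in both (0.24 ± 0.044 and 0.24 ± 0.043).

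The acetyltransferases Kat2a (GCN5) and Kat2b (PCAF), which form alternative cores of the same coactivator complexes, went opposite ways at 3 days. Kat2b dropped from 118, 133 and 123 CPM to 85.2, 90.4 and 90.0 at 4 h (-0.50 ± 0.050, adjusted p = 1.43e-10) and rose to 157, 163 and 150 at 3 days of forskolin (0.32 ± 0.049, adjusted p = 1.05e-06), with 138, 144 and 141 after rosiglitazone (0.17 ± 0.049). Kat2a was level at 4 h with 41.6, 40.5 and 42.7 CPM against 43.5, 39.5 and 42.3. It then fell to 33.3, 30.4 and 29.5 CPM at 1 day (-0.43 ± 0.074), 27.2, 22.1 and 27.6 at 3 days (-0.69 ± 0.076, adjusted p = 1.88e-09) and 28.3, 26.0 and 28.3 after rosiglitazone (-0.60 ± 0.074). Crebbp was lower at 3 days of forskolin (-0.19 ± 0.047) and of rosiglitazone (-0.22 ± 0.046). Its call at 1 day (-0.14 ± 0.046, adjusted p = 0.0131) was lost with no filter (-0.13, adjusted p = 0.0551) and without vehicle S1, FSK1D S8 or FSK1D S9 (-0.089, -0.11 and -0.12, adjusted p = 0.187, 0.0928 and 0.0866). Ep300 was lower after rosiglitazone alone (-0.14 ± 0.044, adjusted p = 0.00684), which was lost without vehicle S1, vehicle S3 or Rosi3D S13 (-0.11, -0.11 and -0.12, adjusted p = 0.0588, 0.0608 and 0.0533).

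Of the enzymes of DNA methylation, Dnmt1 (chromosome 9, 20907209 to 20959888, minus strand), which copies methylation onto new DNA strands, had the largest late change of any member under forskolin. Its libraries held 289, 262 and 265 CPM in vehicle, then 313, 275 and 297 at 4 h and 281, 285 and 280 at 1 day. They then held 134, 130 and 131 CPM in FSK3D (-1.05 ± 0.048, adjusted p = 9.66e-19) and 134, 134 and 129 in Rosi3D (-1.04 ± 0.048, adjusted p = 2.48e-19), and these groups did not overlap with the earlier ones. Dnmt3a (chromosome 12, 3806007 to 3914443, plus strand), which sets new methylation, moved the other way. It was at 85.4, 96.2 and 81.3 CPM in vehicle and fell to 49.1, 58.5 and 51.0 at 4 h (-0.73 ± 0.063, adjusted p = 8.28e-12) and 71.6, 65.8 and 65.0 at 1 day (-0.38 ± 0.062). Rosiglitazone gave 130, 134 and 141 CPM (0.62 ± 0.061, adjusted p = 1.28e-10). At 3 days of forskolin 94.9, 96.9 and 101 CPM overlapped with vehicle (0.16 ± 0.062, adjusted p = 0.0344). Without vehicle S1, vehicle S3 or FSK3D S12 that call was lost (0.15, 0.12 and 0.13, adjusted p = 0.0825, 0.158 and 0.110). Dnmt3b, at 0.766 to 2.19 CPM in all libraries, was called in no comparison, and without FSK1D library S7 its difference at 1 day passed (-0.93, adjusted p = 0.0458).

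Tet2 (chromosome 3, 133463679 to 133545139, minus strand), which oxidizes methylated cytosine, rose at 4 h. It went from 119, 122 and 117 CPM to 244, 264 and 243 at 4 h (1.07 ± 0.051, adjusted p = 7.87e-19). It remained above every vehicle library at 1 day with 133, 130 and 137 CPM (0.16 ± 0.051, adjusted p = 0.0121) and at 3 days with 168, 184 and 157 (0.50 ± 0.052, adjusted p = 4.33e-10). Rosiglitazone gave 130, 140 and 129 CPM, also above every vehicle library and called higher. Tet3 was lower at 4 h (-0.26 ± 0.047) and higher at 3 days (0.14 ± 0.047, adjusted p = 0.0117) and after rosiglitazone (0.46 ± 0.046). The Tet3 call at 3 days was lost without vehicle library S3 (0.11, adjusted p = 0.0793). Tet1, at 2.53 to 6.58 CPM, was higher at 3 days (0.43 ± 0.18, adjusted p = 0.0455), a call lost with DESeq2 (0.45, adjusted p = 0.0599), with library size alone (0.42, adjusted p = 0.0521) and without any of vehicle S1, S2 and S3 and FSK3D S11 and S12 (0.34 to 0.50, adjusted p = 0.0516 to 0.165).

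**Figure D3:**
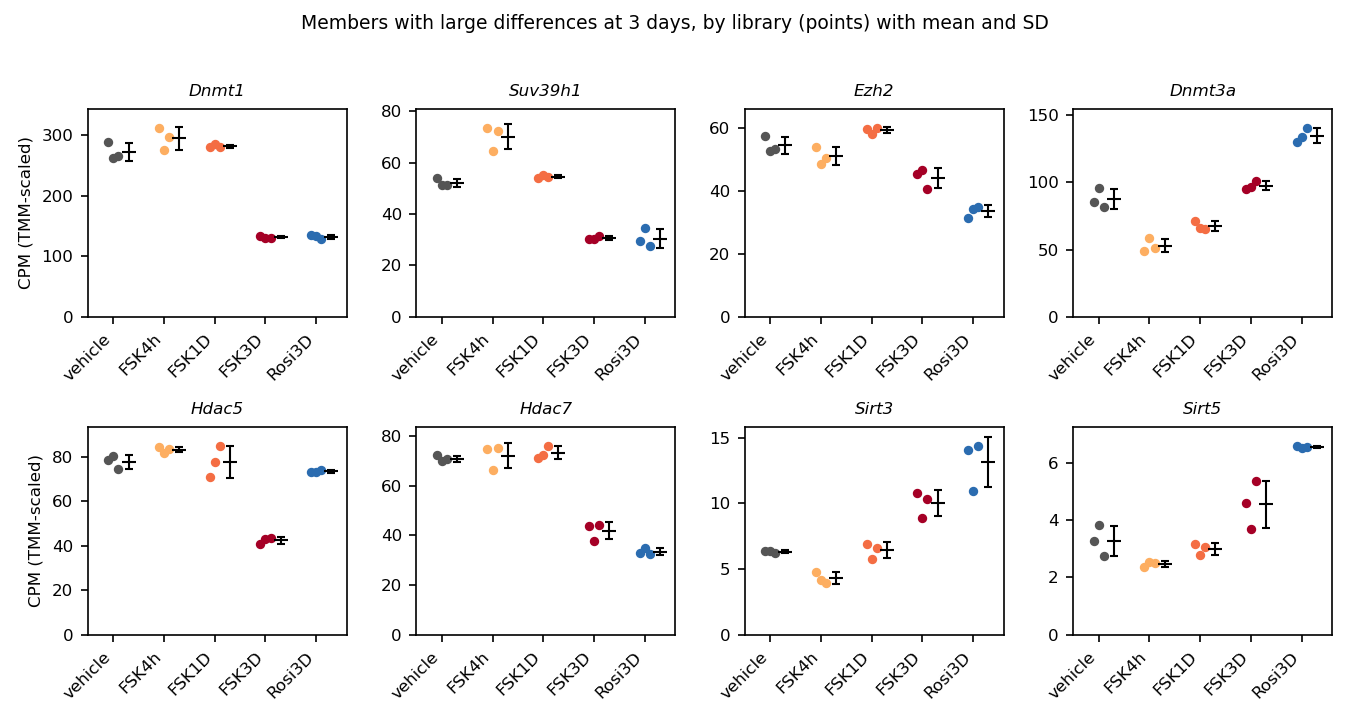
TMM-scaled CPM of 8 members in each library (points, linear axis from 0) with mean and SD, by group. Dnmt1 and Suv39h1 are lower in all FSK3D and Rosi3D libraries than in all others, Hdac5 is low in FSK3D alone, and Dnmt3a, Sirt3 and Sirt5 are highest in Rosi3D.

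The late falls of Dnmt1, Suv39h1 and Ezh2 moved with dividing-cell markers. All 10 of those markers were lower at 3 days of forskolin (median -0.69) and after rosiglitazone (median -1.05), from 2094 to 2223 CPM in vehicle to 1244 to 1325 in FSK3D and 925 to 1064 in Rosi3D. At 1 day 8 of the 10 were higher (median 0.33), while Dnmt1, Suv39h1 and Ezh2 did not pass (adjusted p = 0.412, 0.476 and 0.121). Between FSK3D and Rosi3D the differences of Dnmt1 (-0.0066 ± 0.049, adjusted p = 0.930) and Suv39h1 (0.017 ± 0.072, adjusted p = 0.876) were not called, whereas 7 of the 10 markers and Ezh2 (0.39 ± 0.066, adjusted p = 7.67e-06) were higher in FSK3D than in Rosi3D. The part of cell division in these falls was not tested.

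Shares within a family were computed per kilobase, as a description. Ezh1 was 29.4% ± 1.11 (SD, n = 3) of Ezh1 and Ezh2 together in vehicle. Forskolin gave 17.9% ± 1.37 at 4 h, 24.6% ± 0.850 at 1 day and 36.7% ± 1.66 at 3 days, and rosiglitazone 44.6% ± 1.96. Dnmt3a was 16.8% ± 1.66 of the 3 Dnmt mRNAs in vehicle, 10.2% ± 1.47 in FSK4h, 31.6% ± 0.910 in FSK3D and 38.9% ± 1.39 in Rosi3D. In both families the libraries of FSK4h lay below vehicle and those of FSK3D and Rosi3D above it. Tet2 went from 52.4% ± 0.994 of the Tet mRNAs in vehicle to 73.3% ± 0.778 in FSK4h and 47.2% ± 1.77 in Rosi3D. The share was lower in Rosi3D although Tet2 itself was called higher there, as was Tet3. Kdm3a went from 63.4% ± 1.93 of Kdm3a and Kdm3b to 82.0% ± 1.93 in FSK4h and was at 75.2% ± 1.39 in FSK3D. Hdac5 made up 41.7% ± 1.35 of class IIa mRNA in vehicle, 33.2% ± 0.874 in FSK3D and 51.4% ± 1.65 in Rosi3D.

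**Figure D4:**
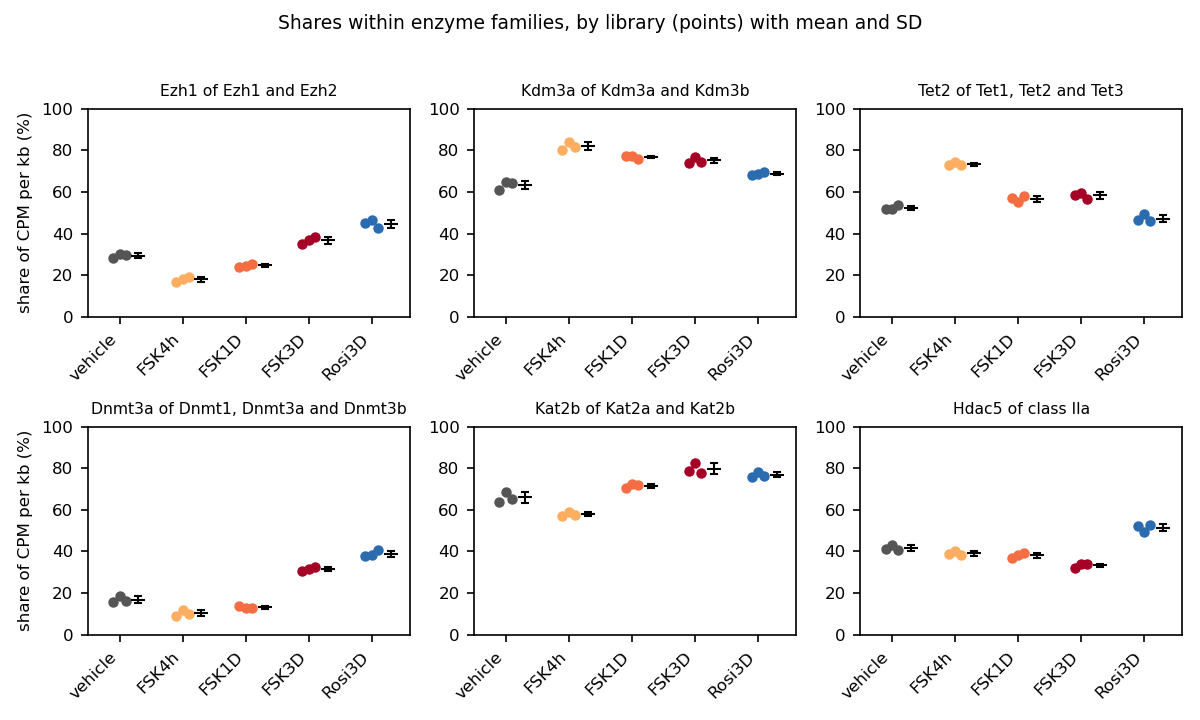
Share of each named enzyme in the summed CPM per kb of its family (percent, axis from 0 to 100) in each library (points) with mean and SD, by group. Ezh1 and Dnmt3a dip at FSK4h and are highest in Rosi3D, Tet2 and Kdm3a peak at FSK4h, and Hdac5 is lowest in FSK3D.

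When members were set out by cofactor, a grouping made after their values were seen and therefore not tested, the 19 dioxygenases (JmjC demethylases and Tet proteins) and the other 38 members had different counts. At 4 h 10 dioxygenases were higher and 5 lower, against 8 and 13 of the others. These counts rest on the scaling, since library size alone gave 7 and 9 against 3 and 26. Without vehicle S3 the others were 5 higher and 13 lower at 4 h. At 1 day the counts were 5 and 4 against 6 and 10. Without FSK1D S8 they were 5 and 0 against 6 and 6. The lower dioxygenases at 1 day were 2 without FSK1D S7 or without any 1 vehicle library. At 3 days the counts were 12 and 1 against 7 and 12 (4 and 13 for the others without FSK3D S12), and after rosiglitazone 12 and 1 against 6 and 16. Of all genes 28.4% were higher and 30.7% lower at 4 h, and 19.5% and 20.7% at 1 day. The shares were 25.9% and 27.0% at 3 days, and 28.6% and 32.0% after rosiglitazone. Of the 7 members that rose 1.5-fold or more at 4 h, 5 were dioxygenases.

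Members called higher at all 3 forskolin times numbered 6 (Kdm3a, Kdm4b, Kdm2a, Tet2, Kdm5c and Kmt2e), and none was lower at all 3. The share of all genes called 1 way at all 3 times was not computed. With library size alone, Kdm5c (-0.019) and Kmt2e (-0.086) had the opposite sign at 4 h, and the Kmt2e call at 4 h was also lost with no filter (0.12, adjusted p = 0.0608) and without vehicle S3 (0.091, adjusted p = 0.124) or FSK4h S5 (0.085, adjusted p = 0.134). Between times, 16 members were higher and 18 lower at 1 day than at 4 h (28.4% and 28.9% of all genes). At 3 days 21 were higher and 13 lower than at 1 day (25.2% and 25.8%), and 21 were higher and 22 lower than at 4 h (35.0% and 33.5%). With library size alone 79.4% of the calls between 1 day and 4 h were rises, where TMM gave 47.1%, and 71.4% of those between 3 days and 4 h, where TMM gave 48.8%. Over all genes library size alone gave 68.8% and 65.1% rises, where TMM gave 49.6% and 51.1%.

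In 11 members the calls at 4 h and at 3 days had opposite signs. The share of all genes with opposite calls was not computed. Hdac11, Sirt3, Sirt5, Dnmt3a, Kat2b, Kdm5b, Kmt2c and Tet3 were lower at 4 h and higher at 3 days, and Dnmt1, Suv39h1 and Kdm1a higher at 4 h and lower at 3 days. Without vehicle S3 the number was 6 (Kdm5b, Kat2b, Kmt2c, Hdac11, Sirt3 and Suv39h1). Each of the calls of Sirt5, and those of Dnmt3a, Tet3 and Hdac11 at 3 days, was lost without 1 or more single libraries, as given above. A called direct difference between FSK3D and FSK4h was part of the rule for these 11, so that call is no added evidence. The difference ran from 2.09 ± 0.17 in Hdac11 and 1.23 ± 0.14 in Sirt3 to -1.19 ± 0.069 in Suv39h1 and -1.16 ± 0.048 in Dnmt1. For each member it was also called in each alternative fit. The sign at 4 h was less firm for Dnmt1 (0.12 ± 0.047, adjusted p = 0.0321) and Kdm1a (0.11 ± 0.049, adjusted p = 0.0431), which with library size alone were at -0.077 and -0.079. The Dnmt1 call at 4 h was lost without vehicle S2 or S3 or FSK4h S4 (0.084 to 0.10), and that of Kdm1a with no filter (0.12) and without vehicle S2 or S3 or FSK4h S4 or S6 (0.11 to 0.12). Kdm5b, which demethylates H3K4, went from 62.2, 56.5 and 62.3 CPM to 50.2, 49.8 and 53.9 at 4 h (-0.23 ± 0.058) and to 73.3, 73.3 and 78.6 at 3 days (0.32 ± 0.058, adjusted p = 1.80e-05).

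Forskolin and rosiglitazone were compared directly at 3 days. Of the members 18 were higher and 9 lower in FSK3D (22.5% and 20.7% of all genes), with a median of -0.0066 against 0.0030 for all genes. Beside Hdac5, those lower in FSK3D were led by Sirt5 (-0.50 ± 0.16), Kdm2b (-0.48 ± 0.068), Dnmt3a (-0.47 ± 0.061) and Sirt3 (-0.39 ± 0.12). Those higher were led by Suv39h2 (0.49 ± 0.14, adjusted p = 0.00626), Kdm3a (0.46 ± 0.050, adjusted p = 1.80e-09), Kdm7a (0.42 ± 0.075), Ezh2 (0.39 ± 0.066), Hdac11 (0.39 ± 0.15, adjusted p = 0.0347), Kdm4b (0.39 ± 0.055) and Tet2 (0.35 ± 0.051). Of the 11 deacetylases 7 were higher and 1 lower in FSK3D, and of the 7 sirtuins 0 were higher and 3 lower. The deacetylases were 4 higher and 2 lower without FSK3D S12, and 4 and 1 with DESeq2. Hdac1 (0.16 ± 0.064, adjusted p = 0.0377) was lost without any 1 of the 6 libraries (0.14 to 0.18), and Hdac8 (0.30 ± 0.12, adjusted p = 0.0355) without FSK3D S11, FSK3D S12 or Rosi3D S13 (0.29, 0.26 and 0.21). Without FSK3D library S11, the shallowest, Sirt5 (-0.39, adjusted p = 0.0673), Sirt3 (-0.33, adjusted p = 0.0532) and Suv39h2 (0.34, adjusted p = 0.0659) were no longer called. Sirt3 was also lost without Rosi3D S13 or S15 (-0.34 and -0.33), and Hdac11 with DESeq2 (0.39, adjusted p = 0.0550) and without FSK3D S12, Rosi3D S14 or S15 (0.24, 0.30 and 0.37). Kdm2b, which also recruits a Polycomb complex to CpG islands, was at 27.3, 28.0 and 27.3 CPM in FSK3D and at 39.6, 37.4 and 37.8 in Rosi3D, with 31.7, 28.6 and 31.1 in vehicle. Of its exon bases 5.77% are shared with Rnf34 on the other strand.

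**Figure D5:**
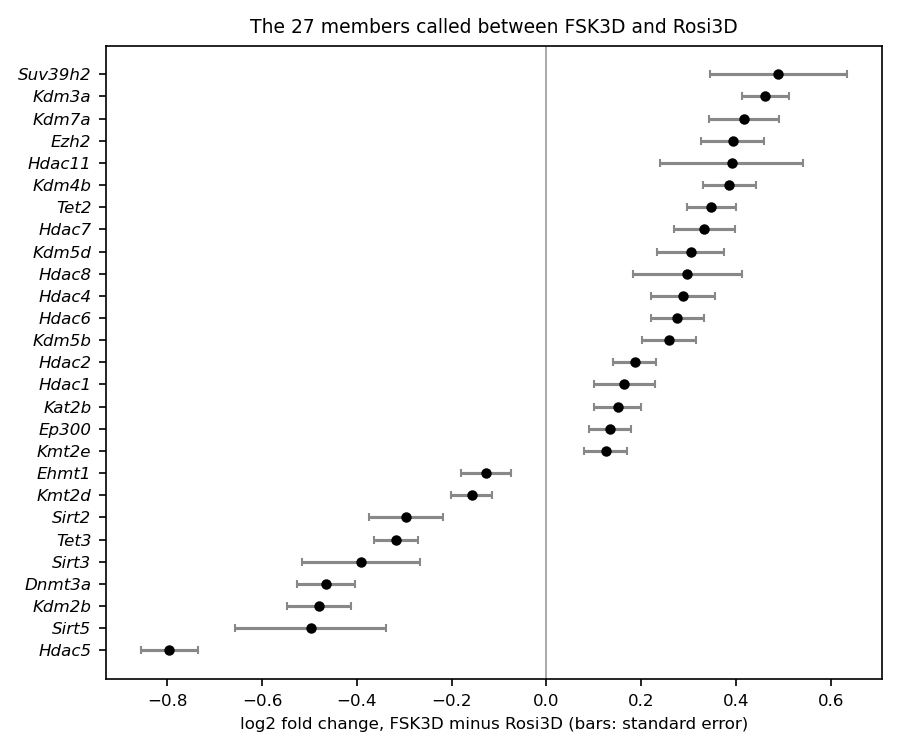
Log2 fold change of FSK3D against Rosi3D (horizontal axis, 0 marked) with SE for the 27 members called in that comparison. Hdac5 stands at -0.80, beyond all others, and 18 of the 27 points lie above 0.

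Partner genes of these enzymes were counted from lists of related genes, with TMM alone. The counts are to be read against the shares of all genes, which were 28.4% higher and 30.7% lower at 4 h. These shares were 25.9% and 27.0% at 3 days of forskolin, and 28.6% and 32.0% after rosiglitazone. Library size alone was not run for these lists. It moved the all-gene median at 4 h from -0.035 to -0.228, so the splits of the lists at 4 h may rest on the scaling. Of the kinases and factors around class IIa deacetylases, 5 of 15 were higher and 7 lower at 4 h, led by Sik1, the salt-inducible kinase that phosphorylates these deacetylases (3.25 ± 0.069, from 21.5 to 204 CPM), and by Mef2c, their transcription factor partner (-1.92 ± 0.29). Partners of Polycomb repressive complex 2 were 7 higher and 2 lower of 9 at 4 h. Its accessory subunit Phf19 fell late (-1.53 ± 0.14 in FSK3D and -1.34 ± 0.13 in Rosi3D). Of Polycomb repressive complex 1, 5 of 19 genes were higher and 7 lower at 4 h, among them Cbx7 (-1.22 ± 0.17) and Cbx6 (-1.04 ± 0.054), readers of H3K27 methylation. Deacetylase corepressor genes were 9 higher and 7 lower of 24 at 4 h, with Sap30 of the Sin3 complex at 1.32 ± 0.13, and 6 and 12 at 3 days.

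At 3 days of forskolin 0 of 21 SWI/SNF remodelling genes were higher and 13 lower (median -0.18), and 0 of 16 COMPASS partners, which serve the Kmt2 enzymes, were higher and 8 lower (median -0.21). Among partners of DNA methylation 6 of 18 were higher and 6 lower at 4 h, with Gadd45g, linked to removal of DNA methylation, at 1.47 ± 0.15 and Idh1, which makes 2-oxoglutarate, at -1.29 ± 0.048. Uhrf1, which brings Dnmt1 to newly copied DNA, fell by 1.38 ± 0.060 on the log2 scale after rosiglitazone. Other acetyltransferases and coactivators were 8 higher and 6 lower of 16 at 4 h, led by Cited1, a coactivator that binds Ep300 and Crebbp (4.27 ± 0.50, from 0.154 to 3.08 CPM), and other demethylases were 4 and 2 of 12, led by Jmjd6 (1.33 ± 0.069). Genes that supply NAD, methyl donors and acetyl-CoA were 5 higher and 6 lower of 22 at 4 h and 10 and 7 after rosiglitazone. Nmnat2, an enzyme of NAD synthesis, rose at 4 h (2.37 ± 0.11) and fell after rosiglitazone (-1.47 ± 0.14), while Acss2, which makes acetyl-CoA from acetate, rose after rosiglitazone (1.66 ± 0.083). Other methyltransferases were 14 higher and 8 lower of 29 at 4 h, and acetyl-lysine readers 4 and 7 of 14, with Mllt3 at -1.07 ± 0.067.

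With TMM and all libraries, Hdac3, Sirt7, Kmt2b and Dnmt3b were called in none of the 8 comparisons, and with library size alone Hdac3, Sirt7 and Kmt2b (-0.16, adjusted p = 0.0158) were lower at 4 h. Tet2 and Dnmt3a were called in all 8.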

How the data were processed

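The authors deposited unnormalized counts of reads for each gene of 15 libraries, with a gene length. The submitters' processing notes name fastp, STAR, featureCounts and the mouse build GRCm38 (mm10). The sources used here do not give versions, the annotation, or how strand, read pairs and multi-mapping reads were handled. In every library more genes had a count of 2 than a count of 1 (757 and 438 in S1). Both reads of a pair may have been counted, so read numbers given here may overstate the number of independent fragments. Column names carry running library numbers (S1 to S15), used as unnumbered libraries of their group, and 0 columns were left out. Counts were filtered with filterByExpr, scaled by TMM and tested in R 4.3.3 with edgeR 4.0.16 (robust quasi-likelihood fit, 1 mean per group, 15 libraries, 10 residual degrees of freedom, two-sided). SE was the log2 fold change divided by the square root of F. The fitting script was tested on simulated data. DESeq2 1.42.0 served as an alternative, and figures were drawn with matplotlib. Positions came from GENCODE vM21 (all 57 members matched). In comparisons with vehicle, members called with an absolute log2 fold change of at least 0.58 were named with values. Of the related genes called with at least 1, only some were named (at most 3 a direction and list). The lists of SWI/SNF remodellers and of other methyltransferases also held such genes, which were not named. In each role the member with the largest change was shown by library, and members with opposite calls at 2 times were named. Members and lists were chosen with earlier results of these data known.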

Additional observations from a re-analysis of the deposited data

Results flagged for a closer look

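In 11 members the effect of forskolin differed between 4 h and 3 days, by the test of FSK3D against FSK4h. Their calls against vehicle had opposite signs at these times. That test was part of the rule, and it called 21 of 57 members higher and 22 lower, beside 35.0% and 33.5% of all genes. The share of all genes with opposite calls was not computed. On the log2 scale the difference of FSK3D from FSK4h was 2.09 in Hdac11, 1.23 in Sirt3, 0.91 in Sirt5, 0.89 in Dnmt3a, 0.82 in Kat2b, 0.55 in Kdm5b, 0.44 in Kmt2c and 0.40 in Tet3. It was -1.19 in Suv39h1, -1.16 in Dnmt1 and -0.30 in Kdm1a. Both effects are taken against the same vehicle libraries, which the direct difference does not use. Without vehicle S3, 6 members had such opposite calls.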

How the results depend on the processing

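Library size alone, in place of TMM, moved the members called at 4 h against vehicle to 10 higher and 35 lower, at 1 day against 4 h to 27 higher and 7 lower, and the lower members at 3 days against 4 h to 12. It also turned the sign of 24 member values that were called with TMM or with library size alone. Sign changes of values called in neither fit were not counted. At 4 h against vehicle these were Hdac2 (-0.065), Ep300 (-0.13), Hdac7 (-0.17), Crebbp (-0.13), Ehmt1 (-0.17), Kdm4a (-0.16), Kdm1a (-0.079), Kmt2e (-0.086), Kmt2b (-0.16), Dnmt1 (-0.077), Kdm6a (-0.17) and Kdm5c (-0.019). At 1 day against 4 h they were Hdac4 (0.012), Ep300 (0.033), Ehmt1 (0.023), Kmt2a (0.12), Kdm6a (0.14) and Kdm5c (0.12), and at 3 days against 4 h Hdac2 (0.0066), Sirt1 (0.017), Ep300 (0.11), Ehmt1 (0.045), Hdac1 (0.16) and Kdm5a (0.15). The median of all genes was then at -0.228, 0.175 and 0.205 in these comparisons, and 27.3%, 68.8% and 65.1% of the calls over all genes were rises. The other settings were size factors of the DESeq2 method, no filter, a filter of 1 CPM in 3 libraries, counts divided by 2, DESeq2 and fits on the compared groups alone. They turned the sign of no value called in either fit, and left every count over all 57 members within 1.5 times. Leaving out 1 library gave 6 to 12 members lower at 1 day against vehicle, where all libraries gave 14, and the other counts over all 57 members stayed within 1.5 times. Among smaller groups, the 11 members with opposite calls at 4 h and 3 days were 6 without vehicle S3. Kdm4d was not tested under the 1 CPM filter. No paired analysis was possible because the columns carry running library numbers and not the replicate numbers of the labels. With totals of 14056200 counts and more, Kdm4d and Dnmt3b are limited by their reads, 295 and 649 over all libraries.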
